A study of Arabidopsis thaliana with 12 samples.

Results

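The mutant tfIIfα2 was compared with wild type in libraries of total RNA from which ribosomal RNA had been removed. The libraries were chosen by genotype and library kit and number 6 of the 12 in the series, 3 of tfIIfα2 and 3 of the wild type titled WTCol0 (called WT here). Both groups were aerial parts of untreated Arabidopsis thaliana plants 6 days old, kept for 3 days at 4 °C and then grown at about 21 °C with 16 h of light and 8 h of darkness on medium with 1% sucrose. The labels write the mutant genotype as tflfalpha-2 and the control genotype as WT. They do not say how the allele was made, whether plants were pooled, or at what hour they were harvested.

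TFIIF is one of the general factors with which RNA polymerase II starts transcription at nuclear promoters, and RAP74 encodes its alpha subunit. Plastids and mitochondria hold small genomes, but most of their proteins, among them the PPR proteins that process their RNA, are encoded in the nucleus. The circadian clock is a loop of nuclear genes in which the morning proteins LHY and CCA1 repress genes expressed in the evening, through a promoter sequence called the evening element.

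Each library held 33292996 to 37456773 counts, of which 12069295 to 14652749 fell on nuclear genes. Plastid and mitochondrial genes took 61.9 ± 1.65% of the counts in tfIIfα2 and 60.4 ± 2.90% in WT (SD, n = 3 each; exact permutation test, two-sided, p = 0.5, where the smallest p this design allows is 0.1). Aerial tissue markers summed to 10500 to 16400 CPM (a gene's count relative to the scaled total count of its library) in tfIIfα2 and 9280 to 14400 CPM in WT. Of 10 seed markers, 2 had enough counts to be tested, and all 10 together summed to 0.905 to 1.64 CPM in tfIIfα2 and 1.05 to 1.41 CPM in WT, and 1 was at 0 in every library. Of 10 root markers, 4 had enough counts, and the summed level of all 10 was 2.18 to 5.51 CPM in tfIIfα2 and 1.06 to 3.99 CPM in WT, highest in replicate 1 of both genotypes. In such samples, fewer cells of a type and less RNA per cell cannot be told apart. The test compared tfIIfα2 with WT within replicates 1, 2 and 3, a choice fixed in advance. Libraries of the same number varied together, most weakly in replicate 2. Values below are CPM in replicates 1, 2 and 3 in that order, and errors of log2 fold changes (tfIIfα2 over WT) are standard errors.

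Across functions, 8 of 12 mitochondrial retrograde genes, 9 of 14 morning clock genes, 8 of 14 RNA polymerase II subunit genes and 9 of 14 glucosinolate genes rose in tfIIfα2, while 7 of 11 evening clock genes, 9 of 12 starch genes and 8 of 15 genes for proteins of the plastid-encoded polymerase complex fell. Against these directions, 2 of the morning clock genes and 2 of the glucosinolate genes fell, and 1 of the starch genes rose. Of 18630 nuclear genes tested, 3508 passed an adjusted p of 0.05 in edgeR (18.8%), 1780 of them higher (9.55%) and 1728 lower (9.28%). The median size of these changes was a log2 value of 0.56. At least 2-fold, 367 genes were higher and 200 lower, and at least 4-fold, 55 were higher and 15 lower. All 3 replicate pairs had the same direction for 1773 of the higher and 1728 of the lower genes. The libraries of the genotypes did not overlap for 1297 of the higher and 1427 of the lower genes that passed, while 28.6% of all tested nuclear genes had no overlap (13% higher and 15.6% lower in tfIIfα2). Without the replicate block 601 nuclear genes passed (3.23%), 1.49% higher and 1.74% lower. Without the replicate 1 pair 1305 passed (7.01%), 3.72% higher and 3.29% lower. In DESeq2 with the block 1627 passed (8.73%), 5.16% higher and 3.57% lower. List counts below are from the fit with the block unless another setting is named. Counts without the block are read against the shares without it. They are given with each group of lists, but not for the RNA types and families at the end. For the lists below with 0 members called in a direction, at most 2 lay in it at an unadjusted p under 0.05 in edgeR, and in DESeq2 1 was called, in the antenna list. 

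**Figure D1:**
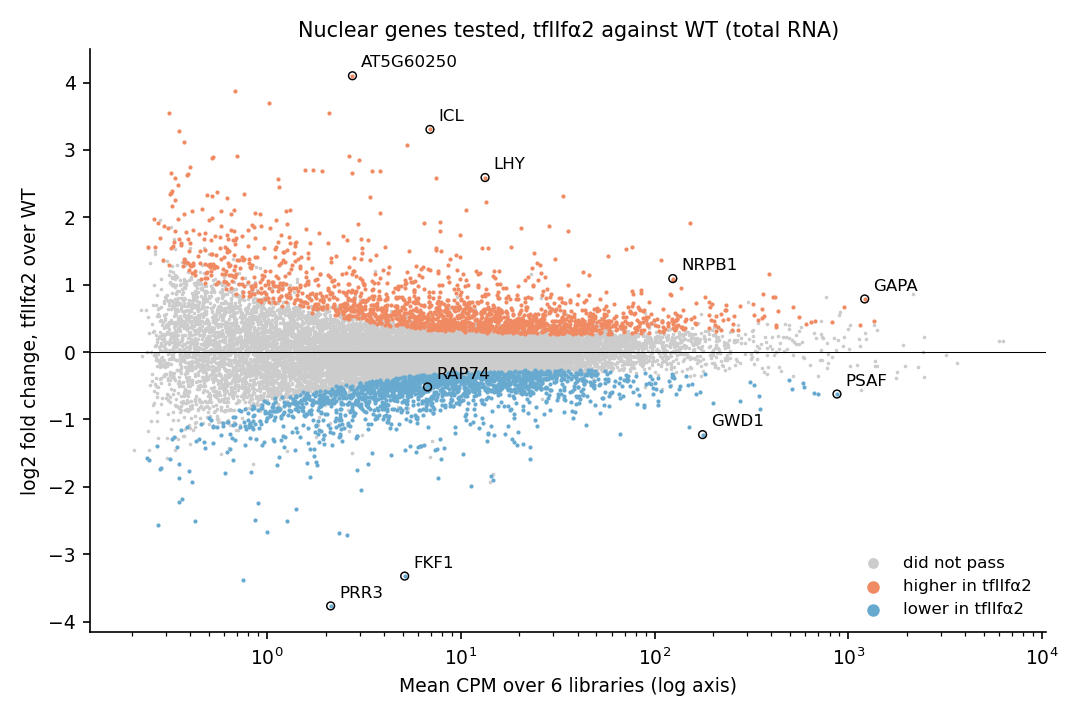
Log2 fold change (tfIIfα2 over WT) against the mean CPM over the 6 libraries, on a log axis, for each tested nuclear gene. Orange points (1780) were higher and blue points (1728) lower in tfIIfα2 at an adjusted p of 0.05 in edgeR; circled genes are described in the text.

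**Figure D2:**
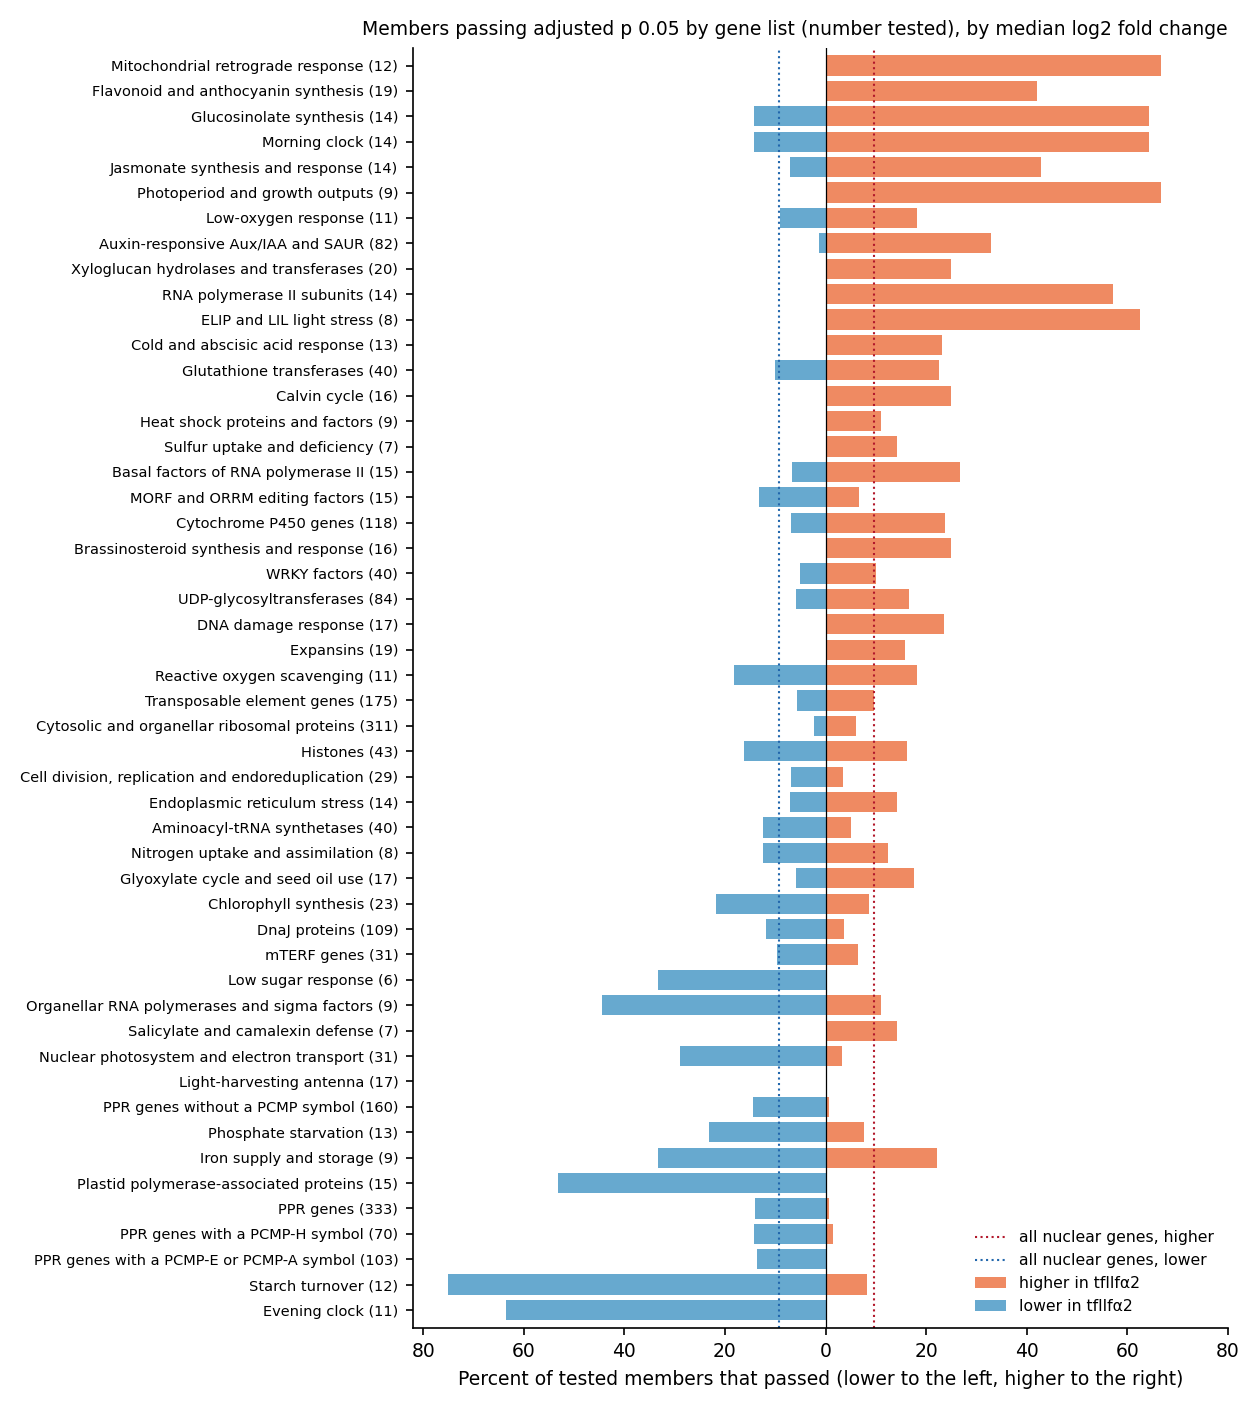
Percent of the tested members of each gene list that passed, with members higher in tfIIfα2 to the right and members lower to the left; lists with at least 6 tested members are ordered by their median log2 fold change and the number tested is in brackets. Dotted lines mark the shares of all tested nuclear genes, 9.55% higher and 9.28% lower; the retrograde and morning clock lists lie far to the right and the starch and evening clock lists far to the left.

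RAP74, the gene to which the mutant's name points, was looked at first. The labels do not say how the allele was made, so that this gene is the mutated one was taken from the name. RAP74 (AT4G12610, chromosome 4, 7454722 to 7458422, plus strand of TAIR10.1) had 4.84, 6.03 and 5.78 CPM in tfIIfα2, against 8.06, 7.58 and 8.06 CPM in WT. All mutant libraries lay below all WT libraries, at a log2 fold change of -0.52 ± 0.11 (edgeR adjusted p = 0.0168), and counts were present in every mutant library. The call was lost without the replicate block (adjusted p = 0.0659 in edgeR), in DESeq2 (adjusted p = 0.0852) and without the replicate 1 pair (adjusted p = 0.144 in edgeR). Topoisomerase VI, an enzyme that untangles DNA and that the series' title joins with TFIIF, had 4 genes tested, of which none passed in edgeR with or without the replicate block or in DESeq2, and none had an unadjusted p under 0.05 in edgeR with the block. TOP6A had 3.65, 5.11 and 5.98 CPM in tfIIfα2 and 3.69, 4.47 and 4.37 CPM in WT (0.21 ± 0.13), TOP6B had a log2 fold change of -0.12 ± 0.12, RHL1 of 0.18 ± 0.14 and BIN4 of -0.14 ± 0.14. The tfIIfα2 and WT libraries overlapped for each of the 4.

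Genes for RNA polymerase II itself were higher in tfIIfα2. Of 14 subunit genes 8 rose and 0 fell, with a median log2 fold change of 0.39, against shares of 9.55% and 9.28% and a median near 0 over all nuclear genes. NRPB1, the largest and catalytic subunit, had 176, 171 and 161 CPM in tfIIfα2, against 79.1, 77.1 and 81.7 CPM in WT. It was the subunit with the largest change, 2.13-fold (1.09 ± 0.09, edgeR adjusted p = 0.000389), and its libraries varied little within each genotype. NRPB2, the other catalytic subunit, had 60.1, 59.7 and 54.5 CPM in tfIIfα2 and 43.5, 39.7 and 39.1 CPM in WT (0.51 ± 0.08). NRPB11, of the assembly platform, had 19.5, 18.5 and 19.2 CPM in tfIIfα2 and 12.1, 11.6 and 12.5 CPM in WT (0.66 ± 0.08). NRPB4, NRPB5A, NRPB6A, NRPB10 and NRPB12 rose by 0.38 to 0.49. NRPB5A, NRPB6A, NRPB10 and NRPB12 encode proteins related or common to other nuclear polymerases. Of 15 genes for basal factors 4 rose and 1, RAP74, fell. TFIIB1, whose protein bridges the promoter complex and the polymerase, had 32.5, 29.9 and 30.9 CPM in tfIIfα2, against 15.9, 14.3 and 17 CPM in WT (0.98 ± 0.08, edgeR adjusted p = 0.000427). XPB2, a DNA helicase of TFIIH, had 14, 13.2 and 11.7 CPM in tfIIfα2 and 8.44, 6.87 and 7.81 CPM in WT (0.75 ± 0.10), and its neighbour and near copy XPB1 rose by 0.37 ± 0.08. AT1G07470, a large subunit of TFIIA, rose by 0.47 ± 0.10. The partner of RAP74 in TFIIF, the beta subunit gene AT1G75510, had a log2 fold change of 0.27 ± 0.10 and did not pass (edgeR adjusted p = 0.0884). Without the replicate block 3 subunit and 2 basal factor genes rose and none fell, and the counts were the same without the replicate 1 pair.

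The largest rises spanned several functions. AT5G60250, a RING finger gene of the kind that often encodes ubiquitin ligases, had 5.84, 5.18 and 4.6 CPM in tfIIfα2, against 0.276, 0.323 and 0.308 CPM in WT. It was 17.2-fold higher (4.10 ± 0.19, edgeR adjusted p = 0.000106), the largest rise among nuclear genes with a mean of at least 1 CPM. BAM5, a beta-amylase outside the plastid, had 4.78, 0.379 and 0.514 CPM in tfIIfα2 and 0.402, 0.0294 and 0 CPM in WT, so that most of its counts came from replicate 1 of both genotypes and the groups overlapped (3.70 ± 0.36). SEC31A, of the COPII coat that buds vesicles from the endoplasmic reticulum, had 2.92, 6.31 and 2.35 CPM in tfIIfα2 and 0.327, 0.558 and 0.0923 CPM in WT (3.55 ± 0.24). ICL, the isocitrate lyase of the glyoxylate cycle, had 12.2, 11 and 14.6 CPM in tfIIfα2, against 1.58, 1.53 and 0.646 CPM in WT (3.30 ± 0.25). AT1G17960, described as a threonyl-tRNA synthetase, had 6.1, 3.73 and 4.21 CPM in tfIIfα2 and 0.578, 0.734 and 0.554 CPM in WT (2.90 ± 0.22). For both genes every mutant library lay above every WT library. AT5G58770, of a family that makes long polyprenol chains, had a log2 fold change of 2.85 ± 0.17, and AT2G18193, described as a P-loop ATPase, of 2.69 ± 0.41. The transporter gene DTXL1 had 4.89, 3.95 and 5.11 CPM in tfIIfα2 and 0.527, 1.88 and 0 CPM in WT (2.65 ± 0.60, edgeR adjusted p = 0.0188), and its 3 WT libraries differed widely. Its call was lost without the replicate block (edgeR adjusted p = 0.112) and in DESeq2 (adjusted p = 0.200), and its log2 fold change was 4.14 with replicate 2 left out. BAM5 (edgeR adjusted p = 0.155) and AT5G58770 (edgeR adjusted p = 0.0666) also lost their calls without the replicate block, as did PORA, HSP23.5 and UGT74E2. PORA, ELIP1, ELIP2, HSP23.5, UGT74E2, JAL41 and LHY, also among the 15 largest rises, are described with their pathways.

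The largest falls were led by clock genes. After PRR3 and FKF1, described next, AT5G23240, which encodes a DnaJ protein, a partner of Hsp70 chaperones, had 0.672, 0.726 and 0.514 CPM in tfIIfα2, against 2.39, 5.38 and 5.72 CPM in WT (-2.72 ± 0.27). AT1G07050 carries the CCT motif shared by CONSTANS and the clock's pseudo-response regulators, and had 0.362, 0.695 and 0.803 CPM in tfIIfα2 and 1.86, 5.41 and 5.01 CPM in WT (-2.69 ± 0.19). A second DnaJ gene, AT1G56300, had 2.59, 6.28 and 5.04 CPM in tfIIfα2 and 12.8, 19.8 and 21 CPM in WT (-1.99 ± 0.13). Each of these genes was lowest in tfIIfα2 in every pair with no overlap between genotypes. AT4G04330, whose product resembles the Rubisco assembly chaperone RbcX, had 3.91, 7.42 and 7.33 CPM in tfIIfα2 and 13, 25 and 29.3 CPM in WT (-1.83 ± 0.10). RIBA2, of riboflavin synthesis, had 2.12, 3.09 and 4.82 CPM in tfIIfα2 and 8.94, 11.3 and 15.7 CPM in WT (-1.87 ± 0.11). AT4G32340, with tetratricopeptide repeats, fell by 1.89 ± 0.10 on the log2 scale. The other falls among the 15 largest were of AT1G11210 and AT1G17665, of unknown function, AT1G31690, a copper amine oxidase, AT2G29300, an oxidoreductase, AT4G13800, a membrane protein family member, AT3G13440, a methyltransferase, and AT3G15750, described as a Yae1 protein. Their log2 fold changes ran from -2.51 to -1.67. AT1G11210 lost its call without the replicate block (edgeR adjusted p = 0.0842).

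The 2 sides of the clock moved apart in tfIIfα2. Of 14 morning genes 9 rose and 2 fell (median 0.49), and of 11 evening genes 0 rose and 7 fell (median -0.86). LHY, a MYB repressor that peaks at dawn, had 22.8, 22.2 and 23.6 CPM in tfIIfα2, against 4.4, 3.23 and 3.75 CPM in WT. It was 6.03-fold higher (2.59 ± 0.11, edgeR adjusted p = 8.56e-05), the smallest adjusted p of any nuclear gene tested. Its partner CCA1 had 18, 18.6 and 16.5 CPM in tfIIfα2 and 10.2, 8.58 and 8.89 CPM in WT (0.94 ± 0.10). CCA1 thus changed less than LHY in every pair, and neither overlapped between genotypes. RVE8, a related MYB gene whose protein activates evening genes, had 4.73, 4.45 and 3.95 CPM in tfIIfα2 and 2.41, 1.59 and 1.08 CPM in WT (1.39 ± 0.19). LNK2 and LNK3, coactivators that act with RVE8, had log2 fold changes of 0.63 ± 0.09 and 1.16 ± 0.10. RVE1, which links the clock to auxin, rose by 0.73 ± 0.11, and the pseudo-response regulator PRR9 by 0.58 ± 0.10. PRR7, which acts after PRR9 during the day, had 52.4, 60.9 and 72.3 CPM in tfIIfα2 and 72.9, 91.5 and 117 CPM in WT, and fell by 0.59 ± 0.09 on the log2 scale. RVE7 was the other morning gene that fell (-0.33 ± 0.08).

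On the evening side, PRR3 (listed as APRR3) had 0.233, 0.284 and 0.353 CPM in tfIIfα2, against 3.74, 3.61 and 4.52 CPM in WT. It was 13.6-fold lower (-3.77 ± 0.20, edgeR adjusted p = 0.000106), the largest fall among nuclear genes with a mean of at least 1 CPM. FKF1 (listed as ADO3), a blue-light receptor that triggers flowering in long days, had 0.362, 0.695 and 1.8 CPM in tfIIfα2 and 3.84, 10.02 and 14 CPM in WT (-3.32 ± 0.18). FKF1 and PRR5 were lowest in replicate 1 and highest in replicate 3 of both genotypes. PRR5 (listed as APRR5), a repressor of LHY and CCA1, had 5.43, 9.19 and 22.5 CPM in tfIIfα2 and 15.5, 29.9 and 42.7 CPM in WT (-1.36 ± 0.14). It was lower in each pair, although the genotypes overlapped, and it lost its call without the replicate block (adjusted p = 0.226 in edgeR). TOC1 (listed as APRR1), a core evening repressor, had 8.72, 8.08 and 9.74 CPM in tfIIfα2 and 12.8, 18.3 and 28.3 CPM in WT (-1.10 ± 0.16). Of the evening complex, LUX had a log2 fold change of -0.86 ± 0.16 and ELF3 of -0.80 ± 0.08. GI, which stabilizes clock photoreceptors and opens the path to flowering, had 35.5, 44.1 and 47.3 CPM in tfIIfα2 and 60.3, 77 and 85.4 CPM in WT (-0.81 ± 0.08). ZTL, LKP2, CHE and BOA did not pass. With any 1 replicate pair left out, at least 7 evening and 7 morning genes passed in those directions, and 4 and 5 did without the replicate block. The hour of harvest is not given in the labels, so a shift in time between the groups cannot be told apart from a change in level.

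**Figure D3:**
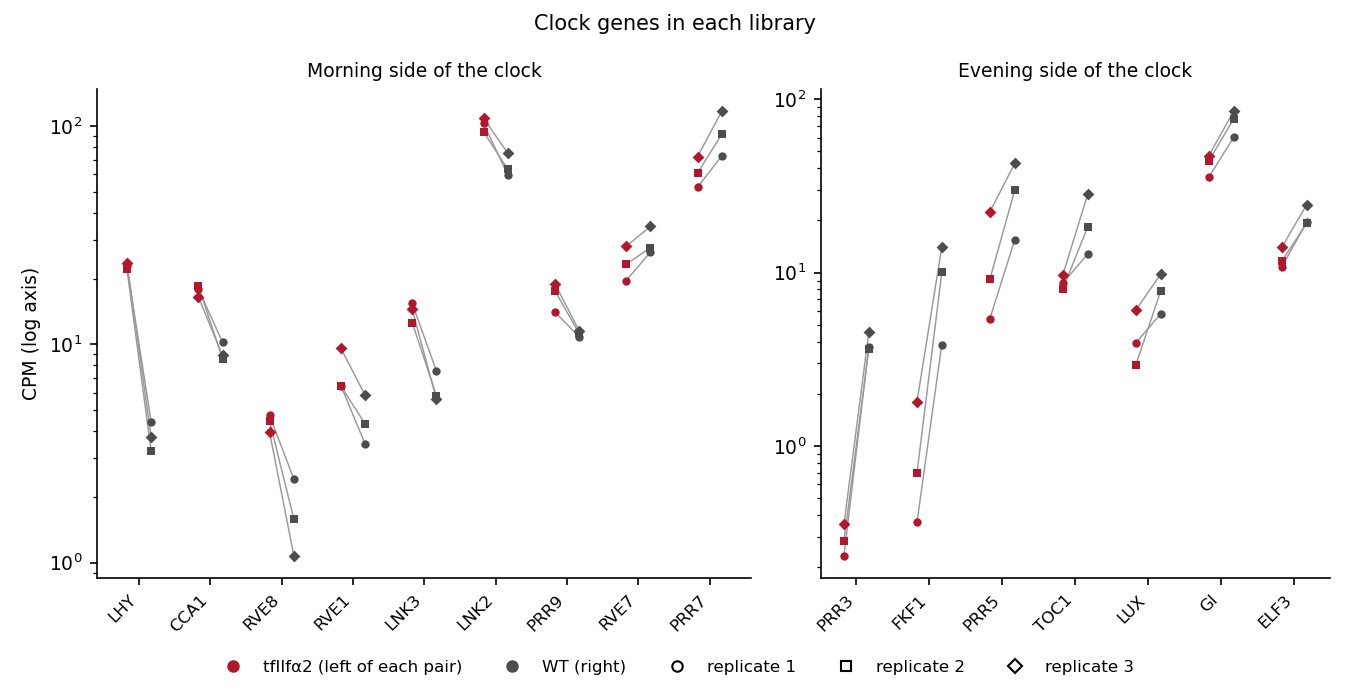
CPM on a log axis of the clock genes that passed (RVE4 and LNK4, the smallest rises, left out), in each library, with the tfIIfα2 library of a pair on the left, its WT library on the right and a line joining them. LHY lies at 22.2 to 23.6 CPM in tfIIfα2 and 3.23 to 4.40 CPM in WT, and PRR3 at 0.233 to 0.353 CPM in tfIIfα2 and 3.61 to 4.52 CPM in WT.

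Promoters were searched for the evening element, AAAATATCT, on both strands of the 250 bases before the annotated start. It was present in 5.52% of the promoters of genes that fell, 1.52% of those that rose and 2.52% of those tested (93 of 1684 promoters of genes that fell), and in 2.36% of all 27443 protein-coding promoters of the nuclear genome. Among genes that fell at least 2-fold the share was 11.1%, and in the evening list, including its untested member, it was 41.7%. The list was drawn from known evening clock genes, the class repressed through this element. Its share is therefore not independent of that choice. The CCA1-binding site AAAAATCT, which shares no full match with the evening element, was in 8.08% of the promoters of genes that fell, 5.60% of those that rose and 6.93% of those tested. Among genes that changed at least 2-fold it was in 12.1% of those that fell and 5.28% of those that rose. FKF1, PRR5 and the RbcX gene AT4G04330 are shown because they fell and their windows hold the element, in capitals (the reverse strand reads AGATATTTT). The sequences are from RefSeq TAIR10.1, read 5′ to 3′ along the gene's strand. The windows are chr1:25508389-25508638 for FKF1, chr5:8358547-8358796 for PRR5 and chr4:2118618-2118867 for AT4G04330, on the plus, minus and minus strands in that order.
FKF1: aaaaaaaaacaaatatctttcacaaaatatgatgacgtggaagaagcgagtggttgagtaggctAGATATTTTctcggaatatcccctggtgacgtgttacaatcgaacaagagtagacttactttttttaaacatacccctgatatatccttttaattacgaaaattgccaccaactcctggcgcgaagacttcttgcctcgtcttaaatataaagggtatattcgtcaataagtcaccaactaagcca
PRR5: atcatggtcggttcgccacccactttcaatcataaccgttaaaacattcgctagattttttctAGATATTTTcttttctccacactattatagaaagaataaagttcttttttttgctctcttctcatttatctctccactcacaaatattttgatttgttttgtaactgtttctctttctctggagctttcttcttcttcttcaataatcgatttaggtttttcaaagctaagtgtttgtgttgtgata
AT4G04330: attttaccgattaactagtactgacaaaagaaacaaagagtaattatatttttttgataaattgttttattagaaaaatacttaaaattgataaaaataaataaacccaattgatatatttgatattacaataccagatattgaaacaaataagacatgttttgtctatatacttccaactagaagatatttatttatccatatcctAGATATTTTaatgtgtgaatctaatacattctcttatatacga
The element starts 186, 187 and 43 bases before the annotated start in these 3 windows. A match is a description of the sequence and not a measured binding site.

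Photoperiod genes that the clock controls rose too, 6 of 9 with 0 falling (median 0.46). COL1 and COL2, relatives of the flowering regulator CONSTANS, had log2 fold changes of 1.20 ± 0.15 and 0.74 ± 0.10. COL1 had 13.8, 7.01 and 11 CPM in tfIIfα2 and 6.15, 4.08 and 3.44 CPM in WT, with no overlap. The Dof factors CDF1, CDF2, CDF3 and CDF5 repress CONSTANS or belong to the family that does, and FKF1 and GI mark such factors for destruction. They rose by 0.46 ± 0.09, 0.93 ± 0.17, 0.37 ± 0.10 and 0.56 ± 0.10. None passed without the replicate block, and 2 did without the replicate 1 pair.

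Genes of the mitochondrial retrograde response, which nuclei switch on when mitochondria fail, were higher in tfIIfα2, with 8 of 12 tested members passing and 0 falling (median 0.94). AOX1A, the alternative oxidase that bypasses part of the respiratory chain, had 17.5, 16.6 and 17.5 CPM in tfIIfα2, against 8.49, 11.5 and 8.55 CPM in WT (0.87 ± 0.12, edgeR adjusted p = 0.00312). NDA1, an alternative NADH dehydrogenase that can feed it, had 37.1, 41.7 and 43.2 CPM in tfIIfα2 and 22.6, 24.1 and 22.8 CPM in WT (0.81 ± 0.08). NDB4, of the same family, had 0.879, 0.631 and 0.418 CPM in tfIIfα2 and 0.126, 0.0588 and 0 CPM in WT, a low level (3.28 ± 0.49). The alternative pathway thus had 3 higher members, while NDA2 (-0.09 ± 0.20) and NDB2 (0.27 ± 0.16) did not pass. HSP23.5, a mitochondrial chaperone of the small heat shock family, had 3.93, 2.08 and 2.15 CPM in tfIIfα2 and 0.829, 0.353 and 0.0923 CPM in WT (2.70 ± 0.31). AT2G21640 (UPOX), raised by oxidative stress, had a log2 fold change of 1.74 ± 0.23, and SOT12, a sulfotransferase, of 1.11 ± 0.16. UGT74E2, a glucosyltransferase that acts on an auxin precursor, had 6.75, 1.61 and 1.64 CPM in tfIIfα2 and 0.427, 1.03 and 0.0308 CPM in WT (2.69 ± 0.59), and it lost its call without the replicate 1 pair. NAC13, a membrane-bound factor that activates the response, rose by 0.94 ± 0.15, and its relative NAC017, held to act before it, did not pass (0.02 ± 0.08). Of these 8 genes 5 passed without the replicate block, and at least 7 of the 12 rose with any 1 replicate pair left out.

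NAC13 and NAC017 bind a promoter sequence called the mitochondrial dysfunction motif, searched on both strands as CTTG, any 5 bases, CA, any 1 base and G. It was in 2.51% of the promoters of genes that rose, 1.31% of those that fell and 1.27% of those tested. Of promoters of genes that rose at least 2-fold 5.57% held it, and of those that fell at least 2-fold 0% did. The retrograde list holds it in 41.2% of its 17 promoters, but the list was drawn from genes known as its targets. The windows of AT1G17960, HSP23.5 and DTXL1 are shown because these genes are among the largest rises and hold the motif, in capitals. They cover chr1:6183807-6184056 on the minus strand, chr5:20890913-20891162 on the plus strand and chr2:1339469-1339718 on the minus strand of RefSeq TAIR10.1, and the window of HSP23.5 overlaps the gene AT5G51430.
AT1G17960: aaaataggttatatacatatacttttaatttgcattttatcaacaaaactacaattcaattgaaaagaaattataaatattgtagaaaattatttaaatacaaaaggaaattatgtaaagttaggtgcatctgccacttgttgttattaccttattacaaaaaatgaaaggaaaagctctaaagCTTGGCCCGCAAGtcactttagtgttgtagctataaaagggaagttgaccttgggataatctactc
HSP23.5: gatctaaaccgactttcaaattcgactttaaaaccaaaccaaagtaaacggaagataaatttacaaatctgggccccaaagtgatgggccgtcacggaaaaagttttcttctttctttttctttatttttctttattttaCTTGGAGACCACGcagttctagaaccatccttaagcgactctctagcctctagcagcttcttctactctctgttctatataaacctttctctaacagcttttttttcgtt
DTXL1: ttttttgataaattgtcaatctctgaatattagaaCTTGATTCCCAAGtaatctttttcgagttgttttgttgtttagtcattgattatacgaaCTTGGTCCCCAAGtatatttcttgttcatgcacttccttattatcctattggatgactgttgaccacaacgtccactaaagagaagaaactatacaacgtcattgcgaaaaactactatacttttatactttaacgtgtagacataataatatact
DTXL1 holds the motif at 2 places, 215 and 156 bases before its annotated start, and the others at 1. AT1G17960 and DTXL1 were not in the retrograde list.

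**Figure D4:**
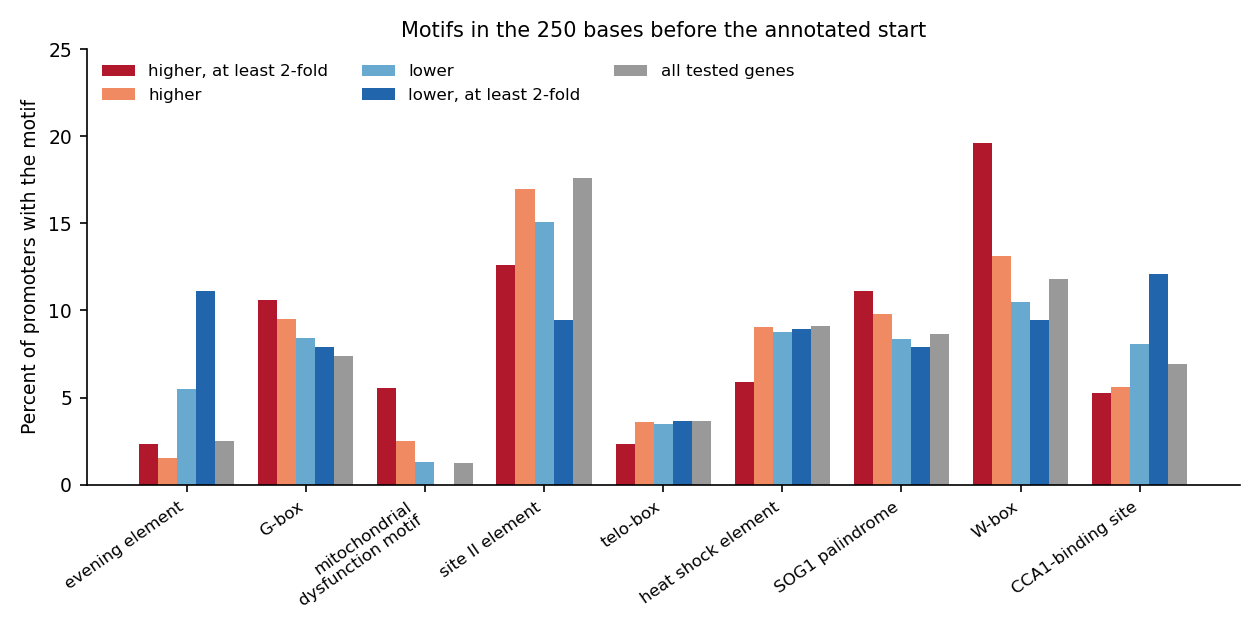
Percent of promoters that hold each motif, for genes that rose (at least 2-fold, then any size), genes that fell (any size, then at least 2-fold) and all tested genes. The evening element reaches 11.1% of genes that fell at least 2-fold against 2.52% of tested genes, and the mitochondrial dysfunction motif 5.57% of genes that rose at least 2-fold against 1.27%.

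The other motifs searched were the W-box TTGACC, bound by WRKY factors, the G-box CACGTG, the site II element TGGGCC, the telo-box AAACCCTA, the heat shock element GAANNTTC and the palindrome of the DNA damage regulator SOG1, CTT and AAG with any 7 bases between them. The W-box was in 13.1% of promoters of genes that rose, 10.5% of those that fell and 11.8% of those tested. Among genes that rose at least 2-fold its share was 19.6%, and among those that fell at least 2-fold it was 9.47%. The G-box was in 9.51% of promoters of genes that rose, 8.43% of those that fell and 7.36% of those tested. The site II element was in 17% of promoters of genes that rose and 15.1% of those that fell, against 17.6% of those tested. The telo-box was in 3.62% of promoters of genes that rose, 3.50% of those that fell and 3.67% of those tested. For the heat shock element the shares were 9.04%, 8.79% and 9.11% in that order, and for the SOG1 palindrome 9.80%, 8.37% and 8.63%. Among genes that rose and fell at least 2-fold, the G-box was in 10.6% and 7.89% and the site II element in 12.6% and 9.47%. The telo-box was in 2.35% and 3.68% of them, the heat shock element in 5.87% and 8.95% and the SOG1 palindrome in 11.1% and 7.89%. Motifs may overlap each other in a window. A mitochondrial dysfunction motif with A as its single free base is also a SOG1 palindrome by its letters. The capitals of AT1G17960 and DTXL1 above match both patterns, and those of HSP23.5 do not, so the shares of these 2 motifs are not independent.

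Of 17 DNA damage genes 4 rose and 0 fell (median 0.10). GMI1, named for its induction by gamma irradiation, had 9.26, 10.5 and 8.8 CPM in tfIIfα2, against 4.47, 3.82 and 3.84 CPM in WT (1.23 ± 0.11, edgeR adjusted p = 0.000635). ANAC044, which stops the cell cycle after DNA damage, had 1.91, 1.8 and 2.15 CPM in tfIIfα2 and 0.352, 0.529 and 0.185 CPM in WT (2.45 ± 0.31). RAD17 and PARP2, of checkpoint signalling and strand break repair, rose by 0.64 ± 0.15 and 0.46 ± 0.13. GMI1 and ANAC044 passed without the replicate block too, and RAD17 and PARP2 did not. The remaining 13 members did not pass.

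Starch turnover genes were mostly lower in tfIIfα2, with 9 of 12 falling and 1 rising (median -0.51). GWD1 (SEX1), the kinase that phosphorylates starch and opens it to breakdown at night, had 98.3, 118 and 102 CPM in tfIIfα2, against 224, 267 and 252 CPM in WT. It was 2.34-fold lower (-1.22 ± 0.09, edgeR adjusted p = 0.000264), with no overlap. PHS2, the glucan phosphorylase of the cytosol, had 81, 123 and 82.6 CPM in tfIIfα2 and 188, 240.2 and 185 CPM in WT (-1.12 ± 0.10). PHS1, its plastid counterpart, had 132, 168 and 147 CPM in tfIIfα2 and 257, 264 and 232 CPM in WT (-0.76 ± 0.10). The disproportionating enzymes DPE1 and DPE2 had log2 fold changes of -0.62 ± 0.09 and -0.48 ± 0.11, and the debranching enzyme ISA3 of -0.43 ± 0.08. The amylase AMY3 (-0.57 ± 0.09) and the phosphatase-related proteins LSF1 (-0.53 ± 0.09) and SEX4 (-0.44 ± 0.12) completed the falls. BAM3, the main beta-amylase of leaf starch, did not pass (0.27 ± 0.10), and neither did the maltose exporter MEX1 (-0.02 ± 0.09). GBSS1, which builds amylose rather than degrading starch and is a known target of LHY and CCA1, had 40.0, 26.6 and 19.3 CPM in tfIIfα2 and 23.3, 10.7 and 8.58 CPM in WT (1.08 ± 0.11). Its level was highest in replicate 1 of both genotypes, so the groups overlapped although each pair was higher in tfIIfα2. In the fit without the block 6 starch genes fell and 0 rose. Of 6 genes raised by low sugar 0 rose and 2 fell, TPS8 (-0.43 ± 0.09) and DIN10 (-0.72 ± 0.21), and neither passed in the fit without the block. DIN10 also lost its call with organelle genes left out (edgeR adjusted p = 0.0518).

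**Figure D5:**
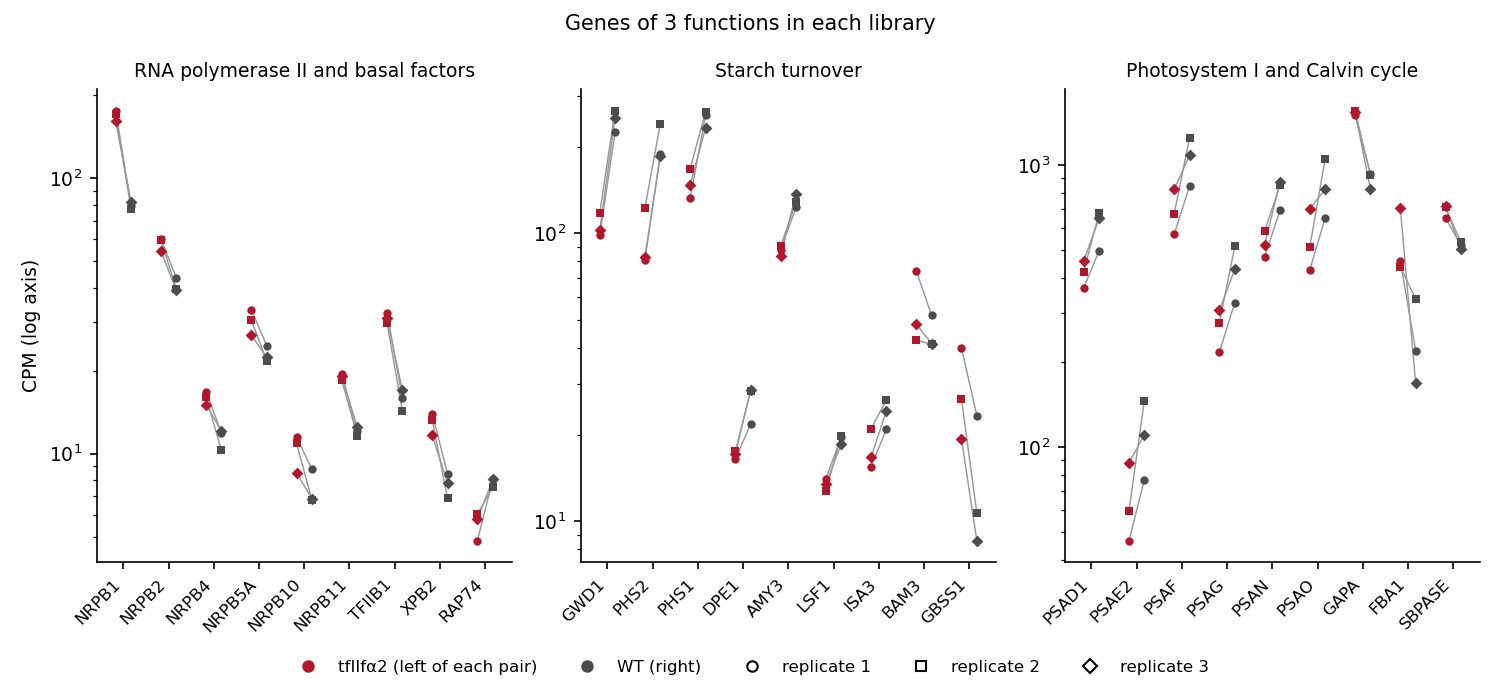
CPM on a log axis in each library for genes of RNA polymerase II and basal factors (left), starch turnover (middle), and photosystem I with the Calvin cycle (right); the tfIIfα2 library of a pair is on the left, its WT library on the right, and a line joins them. NRPB1 lies at 161 to 176 CPM in tfIIfα2 and 77.1 to 81.7 CPM in WT, and GWD1 at 98.3 to 118 CPM in tfIIfα2 and 224 to 267 CPM in WT; RAP74 and BAM3 are included although RAP74 fell and BAM3 did not pass.

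Several subunits of photosystem I were lower in tfIIfα2. Of 31 genes for photosystem and electron transport proteins 9 fell and 1 rose (median -0.19), and 7 of the 9 encode subunits of photosystem I. PSAF, which docks plastocyanin, had 569, 673 and 821 CPM in tfIIfα2, against 845, 1251 and 1085 CPM in WT (-0.62 ± 0.13, edgeR adjusted p = 0.0151). PSAG, which helps to anchor the antenna, had 218, 277 and 306 CPM in tfIIfα2 and 326, 515 and 428 CPM in WT (-0.65 ± 0.12). PSAN, on the lumen side, had 473, 584 and 524 CPM in tfIIfα2 and 692, 851 and 869.9 CPM in WT (-0.61 ± 0.11). All 3 were lower in each pair without overlap, and WT replicate 1 was the lowest WT library. PSAD1, PSAD2 and PSAE2, on the stromal side where ferredoxin binds, had log2 fold changes of -0.54 ± 0.11, -0.49 ± 0.11 and -0.78 ± 0.16, and PSAO of -0.62 ± 0.16. The other falls were of PSBQ2 (-0.52 ± 0.12), of the oxygen-evolving complex, and FNR2 (-0.42 ± 0.10), a ferredoxin-NADP reductase, while PSBQ1 rose (0.52 ± 0.14). PSBQ1 and PSBQ2 are paralogs. No gene of this list passed without the replicate block. Without the replicate 1 pair 0 rose and 1 fell, and without the replicate 3 pair 1 rose and 15 fell. Without the replicate 2 pair 4 rose and 3 fell, with a median log2 fold change of 0.01, so the lean downward was not seen in that setting. Of 17 antenna genes 0 passed in edgeR (median -0.21) and 1 fell in DESeq2, 2 were lower at an unadjusted p under 0.05 in edgeR, and 11 fell when the replicate 3 pair was left out. With the replicate 2 pair left out 0 antenna genes passed, and their median was 0.15. LHCA3, of the photosystem I antenna, was the nearest to passing (1287, 1546 and 1757 CPM in tfIIfα2 and 1607, 2305 and 2093 CPM in WT, edgeR adjusted p = 0.0759).

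Carbon fixation genes included 4 of 16 Calvin cycle genes that rose and 0 that fell (median 0.25). GAPA, a subunit of the plastid glyceraldehyde phosphate dehydrogenase, had 1506, 1564 and 1546 CPM in tfIIfα2, against 934, 921 and 821 CPM in WT (0.79 ± 0.12, edgeR adjusted p = 0.00462), the largest gain in CPM of any nuclear gene that passed. FBA1, an aldolase of the plastid, had 459, 437 and 708 CPM in tfIIfα2 and 221, 336 and 169 CPM in WT (1.16 ± 0.27), with its call lost in DESeq2 (adjusted p = 0.201). SBPASE, which regenerates the acceptor of carbon dioxide, rose by 0.41 ± 0.11, and CP12-2, a small regulator of GAPA, by 0.48 ± 0.12. Photorespiration genes were among the largest gains in CPM. GGAT1, the peroxisomal glutamate:glyoxylate aminotransferase, had 1215, 1102 and 1185 CPM in tfIIfα2 and 697, 719 and 774 CPM in WT (0.68 ± 0.12). GLO1, a glycolate oxidase, had 618, 618 and 674 CPM in tfIIfα2 and 388, 431 and 380.0 CPM in WT (0.67 ± 0.11). GLU1, the ferredoxin glutamate synthase that recaptures photorespiratory ammonium, had a log2 fold change of 0.40 ± 0.12. CAT2, the main leaf catalase, had 587, 414 and 409 CPM in tfIIfα2 and 309, 242 and 222 CPM in WT (0.86 ± 0.10), while CAT1 fell (-0.68 ± 0.08). Without the replicate 1 pair none of the 4 Calvin cycle genes passed, and GAPA was the 1 that passed without the replicate block. GGAT1 (edgeR adjusted p = 0.151), GLO1 (edgeR adjusted p = 0.0854) and GLU1 (edgeR adjusted p = 0.405) did not pass without the replicate 1 pair either. Without the replicate block GGAT1 and GLO1 passed and GLU1 did not (edgeR adjusted p = 0.103). With organelle genes left out, SBPASE (edgeR adjusted p = 0.0511) and GLU1 (adjusted p = 0.0812) lost their calls.

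Chlorophyll synthesis genes moved in both directions, with 2 of 23 higher (8.7%) and 5 lower (21.7%), against 9.55% and 9.28% of all nuclear genes. PORA, a light-dependent protochlorophyllide reductase usually abundant in the dark, had 2.07, 9.91 and 16.4 CPM in tfIIfα2, against 0.477, 1.32 and 1.29 CPM in WT (3.07 ± 0.23, edgeR adjusted p = 0.00026). PORB, a close relative at a much higher level in the same libraries, had 153, 308 and 301 CPM in tfIIfα2 and 312, 579 and 448 CPM in WT (-0.84 ± 0.12). PORA and PORB were thus changed in opposite directions in every pair. CRD1, of the cyclase that forms the fifth ring of chlorophyll, rose by 0.46 ± 0.12. Its call was lost with organelle genes left out (edgeR adjusted p = 0.0652) and without the replicate 1 pair (edgeR adjusted p = 0.321). CHLI2, a magnesium chelatase subunit (-0.59 ± 0.08), PPOX1 (-0.68 ± 0.10) and HEME2 (-0.54 ± 0.09) were lower. ELIP1 and ELIP2, relatives of antenna proteins made under strong light, had 9.13, 3.88 and 6.72 CPM and 16.9, 6.44 and 15.3 CPM in tfIIfα2, against 1.88, 0.764 and 0.431 CPM and 3.11, 1.53 and 1.63 CPM in WT. Both rose, by 2.69 ± 0.26 and 2.59 ± 0.18, and as close copies they may share reads, so each single value is uncertain. SEP2 (0.83 ± 0.10), OHP1 (0.36 ± 0.08) and LIL3.1 (0.28 ± 0.08), of the same wider family, rose too, so that 5 of 8 were higher and 0 lower. With no block 0 chlorophyll genes rose and 3 fell, while 3 of the 8 ELIP and related genes rose.

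Many genes that serve plastid transcription were lower in tfIIfα2. Of 15 genes for proteins associated with the plastid-encoded polymerase 8 fell and 0 rose (median -0.31), with 14 of the 15 below 0. PTAC3 had 29.5, 32.2 and 29.3 CPM in tfIIfα2, against 49.7, 48.9 and 45 CPM in WT (-0.66 ± 0.08, edgeR adjusted p = 0.00196). PTAC13 had 22, 22.9 and 23.7 CPM in tfIIfα2 and 32.7, 33.1 and 33.2 CPM in WT (-0.53 ± 0.08), and PTAC6 had a log2 fold change of -0.48 ± 0.08. These 3 passed without the replicate block as well. PTAC16 (-0.72 ± 0.16), PTAC14 (-0.39 ± 0.10), FLN1 (-0.32 ± 0.09), FSD2 (-0.31 ± 0.09) and PTAC7 (-0.27 ± 0.08) passed with it only. FSD2 is an iron superoxide dismutase of the complex, and FLN1 resembles a fructokinase. Of 9 organellar polymerase and sigma factor genes 4 fell and 1 rose. RPOT3, the phage-type polymerase of the plastid, had 20.2, 20.2 and 13.9 CPM in tfIIfα2 and 36.3, 23.9 and 19.4 CPM in WT (-0.53 ± 0.12). Among sigma factors, which guide the plastid-encoded polymerase to promoters, SIGA rose (0.44 ± 0.08) and SIGC (-0.47 ± 0.09), SIGD (-0.38 ± 0.11) and SIGF (-0.28 ± 0.08) fell. In the fit without the block 1 of these 9 genes fell and 0 rose.

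Of 333 tested PPR genes 47 fell and 2 rose (median -0.33), which is 14.1% lower and 0.601% higher, against 9.28% and 9.55% of all nuclear genes. The log2 fold change was below 0 for 278 of the 333. The series' title names PPR genes, so the choice of this family is not independent of these samples. AT5G02860 had 5.2, 7.26 and 6.81 CPM in tfIIfα2, against 10.2, 11.6 and 11.3 CPM in WT (-0.80 ± 0.10, edgeR adjusted p = 0.00236). PCMP-E53 had 1.11, 1.23 and 1.86 CPM in tfIIfα2 and 3.11, 3.08 and 3.69 CPM in WT (-1.25 ± 0.17). AT5G24060 had 7.11, 8.37 and 7.94 CPM in tfIIfα2 and 13.4, 12.7 and 12.1 CPM in WT (-0.71 ± 0.10). None of these overlapped between genotypes. Symbols with PCMP-H mark mostly proteins that end in a DYW domain, and of 70 such genes 10 fell and 1, PCMP-H61, rose (0.65 ± 0.10), with a median of -0.40. Of 103 genes with a PCMP-E or PCMP-A symbol 14 fell and 0 rose (median -0.44), and of 160 without such a symbol 23 fell and 1 rose (median -0.21). PCMP-H8, of the DYW group, had 4.16, 4.48 and 4.21 CPM in tfIIfα2 and 6.68, 6.7 and 6.15 CPM in WT (-0.60 ± 0.11). PCMP-A2, of the other group, had 4.29, 5.9 and 5.4 CPM in tfIIfα2 and 8.94, 7.96 and 8.43 CPM in WT (-0.71 ± 0.13). Both lay lower in every mutant library than in any WT library. In all, 11 PPR genes fell without the replicate block, or 3.3% against 1.74% of all nuclear genes. The share lower was not above that of all nuclear genes without the replicate 1 pair (10 genes, 3.01% against 3.29%), and in DESeq2 it was about the same (12 genes, 3.6% against 3.57%). The median log2 fold change was -0.27 and -0.32 in these 2 settings.

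Other nuclear genes serve organelle gene expression too. Of 15 MORF and ORRM editing factors 1 rose (6.67%), MORF5 (0.36 ± 0.11), and 2 fell (13.3%), ORRM1 (-0.47 ± 0.09) and AT1G73530 (ORRM6, -0.47 ± 0.12). Of 31 mTERF genes, which act in organelle transcription and RNA processing, 2 rose and 3 fell. These were 6.45% and 9.68% of them, against 9.55% and 9.28% of all nuclear genes. Of 40 aminoacyl-tRNA synthetase genes 2 rose and 5 fell (5% and 12.5%), and AT1G17960, described above, had the largest change of them. The 311 genes for ribosomal proteins had 19 rises and 7 falls (median 0.09), which is 6.11% and 2.25%, both below the shares of all nuclear genes. With no block no editing factor or mTERF gene passed, 1 synthetase gene rose, and 1 ribosomal protein gene rose and 2 fell.

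Genes of secondary metabolism that passed were mostly higher in tfIIfα2. Of 19 flavonoid genes 8 rose and 0 fell (median 0.57). CHS, the entry enzyme, had 57.1, 42.7 and 65.4 CPM in tfIIfα2, against 25.8, 16 and 8.4 CPM in WT (1.80 ± 0.29, edgeR adjusted p = 0.00545). F3H, 2 steps on, had a log2 fold change of 0.94 ± 0.15, LDOX, of the anthocyanin branch, of 1.45 ± 0.24, and UGT78D2, which adds glucose, of 0.97 ± 0.13. All of them were higher in tfIIfα2 in each pair, and none passed without the replicate block. Of 14 glucosinolate genes 9 rose and 2 fell (median 0.52). CYP79F1, which commits methionine derivatives to the aliphatic branch, had 103, 121 and 58.4 CPM in tfIIfα2 and 71, 73.9 and 33 CPM in WT (0.69 ± 0.09), and its near copy CYP79F2 a log2 fold change of 1.07 ± 0.18. CYP79B2, of the tryptophan branch (0.83 ± 0.10), the glucosyltransferase UGT74B1 (0.56 ± 0.09) and the regulator MYB29 (0.61 ± 0.09) rose as well. Replicate 3 was low for these genes in both genotypes, so the groups overlapped. The 2 that fell, TGG1 (-0.46 ± 0.11) and TGG2 (-0.48 ± 0.09), encode the myrosinases that break glucosinolates down. None of the 11 passed without the replicate block.

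Of 14 jasmonate genes 6 rose and 1, AOS, fell (-0.33 ± 0.10), with a median of 0.48. LOX2, of jasmonate synthesis in the plastid, had 98, 153 and 79.4 CPM in tfIIfα2, against 55, 90.6 and 34.4 CPM in WT (0.93 ± 0.11, edgeR adjusted p = 0.00154). AOC1, further along the pathway, had 4.37, 4.77 and 3.41 CPM in tfIIfα2 and 1.78, 2.35 and 1.88 CPM in WT (1.07 ± 0.15). VSP1 and VSP2, storage proteins that jasmonate induces, had log2 fold changes of 2.59 ± 0.39 and 1.47 ± 0.22, the repressor JAZ9 of 0.57 ± 0.11 and the ethylene and jasmonate factor ORA59 of 1.01 ± 0.25. Of the jasmonate genes 2 rose and 0 fell with no block. LOX2 followed the replicate as well as the genotype, being highest in replicate 2 of both. Of 7 salicylate and camalexin genes 1 rose (14.3%, against 9.55% of all nuclear genes), PAD3 (1.85 ± 0.26), the last enzyme of camalexin synthesis. None of the 7 rose with no block. Of 4 jacalin lectins tested 3 rose (median 1.54), with JAL22 at 114, 107 and 94.2 CPM in tfIIfα2 and 39, 41 and 30.1 CPM in WT (1.53 ± 0.09). PBP2 (1.55 ± 0.11) and JAL23 (3.87 ± 0.42) also rose, and these 3 passed without the replicate block. JAL41, described in the table as a mannose-binding lectin, had 4.89, 2.62 and 1.51 CPM in tfIIfα2 and 0.779, 0.294 and 0.308 CPM in WT (2.70 ± 0.22).

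Large families of detoxifying enzymes leaned upward in the fit with the block. Of 118 cytochrome P450 genes 28 rose and 8 fell (median 0.21), of 40 glutathione transferase genes 9 rose and 4 fell (median 0.26), and of 84 UDP-glycosyltransferase genes 14 rose and 5 fell (median 0.11). CYP96A4, whose relatives act in cuticular wax synthesis, had 4.34, 6.57 and 3.12 CPM in tfIIfα2 and 1.58, 1.76 and 0.954 CPM in WT (1.68 ± 0.15). CYP711A1 (MAX1), of strigolactone synthesis, rose by 1.11 ± 0.13. GSTU17 had 31.7, 27.8 and 21.5 CPM in tfIIfα2, against 13.1, 9.02 and 6.12 CPM in WT (1.55 ± 0.11, edgeR adjusted p = 0.00026). GSTF6 and GSTF7, neighbours and near copies, had 67.1, 11.7 and 9.99 CPM and 27.3, 2.59 and 3.08 CPM in tfIIfα2, against 35.6, 4.11 and 4.92 CPM and 9.49, 0.793 and 1.2 CPM in WT. Both were many times higher in replicate 1 than in replicates 2 and 3 of either genotype, and higher in tfIIfα2 in each pair (1.12 ± 0.12 and 1.52 ± 0.12). UGT72C1 (2.89 ± 0.37) and UGT73C1 (1.62 ± 0.18) rose beside UGT74E2. With no block 2 P450 genes rose (1.69%) and 1 fell (0.847%), 1 glutathione transferase gene rose (2.5%) and 1 UDP-glycosyltransferase gene rose (1.19%). These shares stand against 1.49% higher and 1.74% lower over all nuclear genes, so the lean upward was not clear without the block.

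Genes of the auxin response that passed were nearly all higher. Of 82 Aux/IAA and SAUR genes 27 rose and 1 fell (median 0.42). AT4G38860, a SAUR gene, had 55.3, 54.4 and 49.9 CPM in tfIIfα2, against 34.4, 38.4 and 34 CPM in WT (0.58 ± 0.08, edgeR adjusted p = 0.00331). SAUR19, SAUR64 and SAUR67, of a group that promotes cell expansion and whose neighbours are near copies, had log2 fold changes of 0.78 ± 0.12, 0.74 ± 0.11 and 0.79 ± 0.12. IAA14, an auxin response repressor, rose by 0.62 ± 0.10. Of 20 xyloglucan hydrolase and transferase genes, which remodel the cell wall, 5 rose and 0 fell (median 0.39), with XTH7 at 257, 197 and 159 CPM in tfIIfα2 and 156, 119 and 95.2 CPM in WT (0.73 ± 0.09). Of 19 expansin genes 3 rose and 0 fell, and of 16 brassinosteroid genes 4 rose and 0 fell. BZR2 (BES1), a main transcription factor of brassinosteroid signalling, had a log2 fold change of 0.47 ± 0.08, BR6OX2, of brassinosteroid synthesis, of 0.49 ± 0.11, and BAS1, which inactivates the hormone, of 0.61 ± 0.13. Of 29 genes of cell division and endoreduplication 1 rose, PCNA (0.47 ± 0.10), and 2 fell, CDC6 (-0.55 ± 0.11) and CYCA2-3 (-0.55 ± 0.11), both shares below the background. With no block 4 auxin response genes rose and 1 fell, and no xyloglucan, expansin, brassinosteroid or cell division gene passed.

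Of 43 histone genes 7 rose and 7 fell, 16.3% each, against 9.55% and 9.28% of all nuclear genes. AT3G53650, described as a histone, had 11.1, 13.5 and 11.6 CPM in tfIIfα2, against 4.04, 3.73 and 2.58 CPM in WT (1.80 ± 0.14, edgeR adjusted p = 0.000296). AT3G09480 rose by 1.15 ± 0.17, while HTA12, a histone H2A gene (-1.25 ± 0.20), AT2G28720 (-0.84 ± 0.10) and H2B (AT3G45980, -0.42 ± 0.09) fell. Histone genes share reads with near copies, which makes single values uncertain. Of 109 DnaJ genes 4 rose and 13 fell, 3.67% and 11.9% of them, against 9.55% and 9.28% of all nuclear genes. Beside AT5G23240 and AT1G56300, the falls included AT4G37480 (-1.04 ± 0.12), EDA3 (-0.63 ± 0.08) and LQY1 (-0.60 ± 0.09), a thylakoid protein needed to repair photosystem II. Of 40 genes for WRKY factors, which regulate defense, 4 rose and 2 fell, 10% and 5% of them, against 9.55% and 9.28% of all nuclear genes. WRKY26 and WRKY57 rose by 1.81 ± 0.38 and 1.02 ± 0.20, and WRKY2 and WRKY3 fell by 0.86 ± 0.14 and 0.58 ± 0.09 on the log2 scale. Of 175 transposable element genes tested, of 3895 in the table, 17 rose and 10 fell (median 0.09), 9.71% and 5.71% of them, against 9.55% and 9.28% of all nuclear genes. AT1G20390 had 42.6, 45.8 and 81.2 CPM in tfIIfα2 and 8.21, 14.8 and 10.3 CPM in WT (2.32 ± 0.21), and AT4G06572 and AT2G06950 rose by 1.54 ± 0.10 and 1.32 ± 0.10. AT2G07767 (0.84 ± 0.10) lies in the stretch of chromosome 2 that holds a copy of mitochondrial DNA, whose genes share reads with the mitochondrion. In a range of gene numbers set around that copy 18 of 110 tested genes rose and 0 fell, against 9.55% and 9.28% of all nuclear genes. The range also takes in genes such as MCM5 (AT2G07690), which is in the cell division list. With no block 2 histone genes rose and 2 fell, 0 DnaJ genes rose and 5 fell, 0 WRKY genes rose and 2 fell, and 9 transposable element genes rose and 3 fell.

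Nutrient and stress lists had at most 3 members called in either direction. Of 9 iron genes 2 rose and 3 fell. FRO3, a ferric reductase of mitochondria, had 8.77, 5.71 and 7.71 CPM in tfIIfα2, against 15.6, 11 and 15.1 CPM in WT (-0.91 ± 0.09, edgeR adjusted p = 0.000869). The ferritins FER1 (-0.48 ± 0.11) and FER3 (-0.41 ± 0.11), which store iron, fell, and NAS4 (0.59 ± 0.09) and OPT3 (0.45 ± 0.09), of iron transport, rose. Of 13 phosphate starvation genes 1 rose, PHO2 (0.44 ± 0.08), and 3 fell, AT4 (-0.87 ± 0.21), SPX1 (-0.48 ± 0.13) and GDPD1 (-0.47 ± 0.14). PHO2 is the ubiquitin-conjugating enzyme that limits phosphate uptake, and the other 3 are raised by phosphate starvation. Of 8 nitrogen genes GLU1 rose and ASN1, an asparagine synthetase raised by darkness and sugar lack, fell (-1.59 ± 0.43). ASN1 had 0.336, 1.14 and 47.3 CPM in tfIIfα2 and 1.33, 12.8 and 73.6 CPM in WT, so that replicates differed far more than genotypes. Of 7 sulfur genes 1 rose, SDI1 (1.15 ± 0.32). Of 11 low-oxygen genes PDC1 (1.70 ± 0.34) and PCO2 (0.60 ± 0.15) rose and PDC2 (-0.58 ± 0.10) fell. No gene of these 5 lists passed in the fit without the block. With organelle genes left out GDPD1 lost its call (edgeR adjusted p = 0.0515), and APR2, an enzyme of sulfate reduction, gained one (log2 fold change 0.32, adjusted p = 0.0491).

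Of 14 genes of endoplasmic reticulum stress SEC31A and NAC103 rose, and PDIL1-1, a protein disulfide isomerase, fell (-0.39 ± 0.08). NAC103, a transcription factor of the unfolded protein response, had 2.46, 2.4 and 1.67 CPM in tfIIfα2, against 1.00, 0.588 and 0.861 CPM in WT (1.41 ± 0.23, edgeR adjusted p = 0.00599). Of 9 heat shock genes 1 rose, MED37C, which encodes a cytosolic Hsp70 (1.44 ± 0.20). Of 13 cold and abscisic acid genes 3 rose, the phosphatase gene HAB1 (0.62 ± 0.11) and the cold genes KIN1 (1.28 ± 0.31) and COR15A (0.89 ± 0.23). Of 11 genes of reactive oxygen scavenging MSD1, the manganese superoxide dismutase of mitochondria, rose (0.33 ± 0.08) beside CAT2, and the thylakoid ascorbate peroxidase gene APXT fell (-0.60 ± 0.08) beside CAT1. Of 17 genes of the glyoxylate cycle and seed oil use ICL, PMDH2 (0.54 ± 0.11) and MLS (0.86 ± 0.25) rose and the lipase SDP1 (-0.32 ± 0.09) fell. MLS, the malate synthase that follows ICL, had 1.27, 1.07 and 1.45 CPM in tfIIfα2 and 0.678, 0.382 and 1.08 CPM in WT, far below ICL. With no block SEC31A, NAC103 and 1 gene of the glyoxylate cycle list rose, 1 scavenging gene fell, and no heat shock, cold or abscisic acid gene passed. No seed marker passed (CRC 0.86 ± 0.47, CRA1 -0.31 ± 0.45).

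Of the 4 root markers tested 1 rose, CASP1, of the root endodermis, with 0.569, 0.789 and 1.41 CPM in tfIIfα2 and 0.0502, 0.558 and 0.0615 CPM in WT (2.09 ± 0.60, edgeR adjusted p = 0.0434), and 0 did without the block. BGLU22, a beta-glucosidase of roots, had 1.76, 0.821 and 0.257 CPM in tfIIfα2 and 0.954, 0.118 and 0.338 CPM in WT and did not pass. BGLU23 (PYK10), an abundant beta-glucosidase of roots and hypocotyls, had 1105, 851 and 894 CPM in tfIIfα2 and 861, 669 and 583 CPM in WT (0.44 ± 0.12), and the groups overlapped. It lost its call with organelle genes left out (edgeR adjusted p = 0.0557) and without the replicate block (edgeR adjusted p = 0.212). Without the replicate 1 pair (edgeR adjusted p = 0.235) or the replicate 2 pair (edgeR adjusted p = 0.0798) it did not pass either. Its level and those of GSTF6, GSTF7 and BAM5 were highest in replicate 1 of both genotypes, as was the summed root marker level. The part of root tissue in these values was not tested.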

How the data were processed

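Total RNA was sequenced with a stranded kit that removes ribosomal RNA, per the labels. The authors deposited whole-number read counts for each of 33602 genes of TAIR10, and their tools, per the submitters' processing notes, included Bowtie2 2.2.9, FastQC 0.11.5 and edgeR 3.20.1. The counting tool and its strand setting are not given in the sources used here, so antisense and overlapping genes cannot be told apart. From the 6 count columns of these groups, genes with enough counts (filterByExpr) were kept, 18863 in all, with organelle genes in the library size. They were scaled by TMM and tested by edgeR 4.0.16 (quasi-likelihood, replicate number as a block, Benjamini-Hochberg over all tested genes, threshold 0.05, R 4.3.3). Another 12 count columns and 18 normalized columns were not used.

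The block was fixed in advance and did not rest on a check of the numbers. Deviations of same-numbered libraries from their group means correlated at 0.638, 0.231 and 0.534 across genes in replicates 1, 2 and 3. Libraries of different numbers correlated at -0.549 to 0.075. Deviations cancel within a group, which ties these values together. Whether the replicates were grown apart is not stated in the labels, and the p-values then reflect only how these samples vary, which may be technical. Replicate libraries were not copies of each other: a chi-square statistic comparing their counts was 15.7 to 46.9 times its degrees of freedom. Counts were also simulated from the fit with the block for 18546 genes, of which 200 were changed. The test recovered 53.0% of 1.5-fold, 85.1% of 2-fold and 100% of 4-fold changes, and 5.99% of its calls were unchanged genes. The same model made and tested these counts, so they cannot show how often calls on the real counts are wrong.

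The members and gene lists were chosen with earlier results of these data known. Genes are named by a rule. It takes RAP74, the topoisomerase VI genes and up to 5 genes of each list by p. It also takes the 15 largest rises and falls and the 8 largest gains and losses in CPM. These were drawn from nuclear genes that passed, averaged 1 CPM or more and had all 3 pairs in one direction. Further list members are named so that small counts are complete. Alternatives were no block, organelle genes left out of the library size, RLE and upper-quartile scaling, other filters, an adjusted p of 0.01, limma-voom (limma 3.58.1), DESeq2 1.42.0 and each replicate pair left out. Promoters are from the RefSeq TAIR10.1 genome and annotation.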

Additional observations from a re-analysis of the deposited data

How the results depend on the processing

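With organelle genes left out of the library size and the test 3523 nuclear genes changed (1867 higher, 1656 lower), 3426 of them among the 3508 nuclear genes called with organelle genes kept. Over all genes 3535 changed in the fit described (1803 higher, 1732 lower) and 3478 with RLE scaling (1877 and 1601). Upper-quartile scaling gave 3560, no filter 3933, a minimum of 50 counts 3215 and limma-voom 3531. With the range of genes set around the mitochondrial insertion of chromosome 2 also left out, an alternative chosen after seeing the data, 3489 changed. Without the replicate block 603 changed (279 higher, 324 lower), the 601 nuclear ones all among the 3508, in DESeq2 1648 (979 and 669) and at an adjusted p of 0.01 1127 (603 and 524). With a replicate pair left out, 1317 to 3435 changed, 699 to 1774 higher and 618 to 1661 lower, lowest without replicate 1 and highest without replicate 3. RAP74 changed by -0.51 without the block and -0.50 in DESeq2, neither past the threshold, and by -0.60 to -0.40 with a pair left out. Of 242 named genes 136 lost their call without the block, 50 in DESeq2 and 90 without replicate 1, and none reversed; the cause was not tested. The organelle share differed by -0.254 to 3.59 percentage points with a pair left out (1.46 with all), and organelle counts per nuclear count were 1.63 ± 0.117 in tfIIfα2 and 1.54 ± 0.193 in WT (SD, n = 3 each; exact permutation test, two-sided, p = 0.5).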

Other observations

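Genes that make no protein were looked at by the type given in the deposited table, a choice made after their values were seen. Counts without the replicate block are not given for these types. Of 13 small nuclear RNA genes, whose products form the spliceosome, 6 rose and 0 fell in tfIIfα2 (46.2% higher, against 9.55% of all nuclear genes). U2.2 had 17.6, 17.6 and 16.9 CPM in tfIIfα2, against 9.62, 7.11 and 6.64 CPM in WT (1.17 ± 0.11, edgeR adjusted p = 0.000818), with no overlap. U12, of the minor spliceosome, had 8.87, 12.3 and 10.8 CPM in tfIIfα2 and 6.43, 7.67 and 7.54 CPM in WT (0.56 ± 0.10). U6-1 and U6-29, both under 1 CPM, U2.3 and U2.6 were the others, with log2 fold changes of 1.01 ± 0.30, 1.80 ± 0.40, 0.42 ± 0.12 and 0.43 ± 0.12. The small nucleolar RNAs U3B and U3D, which guide the cutting of ribosomal RNA, had 431, 476 and 656 CPM and 449.7, 484 and 666 CPM in tfIIfα2, against 288, 351 and 242 CPM and 292, 361 and 249.7 CPM in WT. Both rose, by 0.82 ± 0.18 and 0.82 ± 0.18. U3D lost its call in DESeq2 (adjusted p = 0.127), without the replicate block (edgeR adjusted p = 0.0659) and without the replicate 1 pair (edgeR adjusted p = 0.0531). In all, 2 of 54 small nucleolar RNA genes rose (3.7%) and 4 fell (7.41%), both below the 9.55% and 9.28% of all nuclear genes. U2, U3 and U6 genes are near copies that can share reads, so single members are uncertain.

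Of 21 microRNA genes tested 1 rose and 2 fell, 4.76% and 9.52% of them, against 9.55% and 9.28% of all nuclear genes. MIR163 rose by 1.28 ± 0.28, with 1.22, 0.789 and 0.707 CPM in tfIIfα2 and 0.427, 0.441 and 0.246 CPM in WT. MIR398C, whose product represses copper superoxide dismutases, fell by 0.46 ± 0.13 on the log2 scale, and MIR850A by 0.56 ± 0.14. These are counts of precursor RNA in a total RNA library, not of mature microRNAs.

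Genes that share a deposited description were counted too. The 7 families below are extremes picked after seeing the values of 79 with at least 20 tested genes, and their counts stand against 9.55% higher and 9.28% lower over all nuclear genes. Counts without the replicate block are not given for them. Of 20 genes described as TRAF-like 9 rose and 0 fell, of 44 described as cysteine and histidine rich with a C1 domain 14 rose and 0 fell, and of 33 peroxidases 10 rose and 0 fell. Of 45 GDSL lipases, enzymes of lipid metabolism and the cuticle, 14 rose and 2 fell, and of 37 MATE transporters, which export toxins and metabolites, 11 rose and 1 fell. In the other direction, of 23 genes for resistance proteins with coiled coils 0 rose and 6 fell, and of 33 for O-fucosyltransferases 0 rose and 7 fell. Members of these families can be near copies of each other.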
